A study of Mus musculus with 12 samples.

Results

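The expression of 9 genes of the BCL2 family was followed across 2 mouse liver cell lines and 2 treatments. Their features were taken by symbol, as those whose annotation names Bcl2, Bcl2l1, Bcl2l2, Mcl1, Bak1, Bcl2l11, Bid, Bad or Bik, and not by their values. The 9 genes themselves were chosen with earlier results of these data known. They were 9 of the 16549 genes tested. The 9 genes were measured by 37 array features, 12 each for Bcl2 and Bcl2l1, 3 for Bcl2l11, 2 each for Bcl2l2, Mcl1, Bak1 and Bad, and 1 each for Bid and Bik. All 37 features had a ratio on all 12 arrays, so no gene or feature was lost to the filter. Bax, which encodes the other main pore-forming protein of the family, was not analysed here.

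The AML12 line was made from hepatocytes of mice transgenic for the growth factor TGF-alpha, and Hepa 1-6 is a line from a mouse liver tumour. The labels give hepatoma as the source of both. AML12 had been maintained with serum, dexamethasone and insulin, and Hepa 1-6 with serum alone. Serum and additives were removed overnight in every group. The control cells of each line then stayed without serum, the second group received 200 ng/mL of prolactin from ovine pituitary, and the third received 10 µg/mL of actinomycin D, both for 8 h. Each of the 6 groups held 2 arrays from biological replicates, per the series design. Each line is a single line, so a difference between them cannot be extended to normal and tumour hepatocytes. Every array set the sample, labelled with Cy5, against a Cy3-labelled reference RNA pooled from 11 mouse cell lines. Values are log2 ratios to that reference, so 0 means the same signal as in the reference, and a ratio says nothing about which of 2 genes has more mRNA. In these bulk samples, fewer cells of a type and less RNA per cell cannot be told apart.

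BCL2 family proteins decide whether the outer mitochondrial membrane stays closed or opens to release cytochrome c, which starts the caspase cascade. BCL2, BCL-XL (the product of Bcl2l1), BCL-W (Bcl2l2) and MCL1 keep it closed, BAK (Bak1) forms the pore, and the BH3-only proteins BIM (Bcl2l11), BID, BAD and BIK bind to the others and favour opening. In hepatocytes BCL-XL and MCL1 are the main guardians, and BID carries the signal of death receptors to the mitochondria. Prolactin signals through JAK2 and STAT5, and Bcl2l1 is a known STAT5 target in other cell types. Actinomycin D blocks RNA synthesis, so that short-lived messages such as that of Mcl1 are known to disappear early.

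The stretches of 250 bases before an annotated start are shown for 3 of the genes, Bcl2l1, Mcl1 and Bcl2l11. Bcl2l1 fell with prolactin in AML12, and Mcl1 fell most with actinomycin D. The gene mean of Bcl2l11 moved in opposite directions in the 2 lines with actinomycin D, though its features did not all do so. The stretches are from RefSeq on GRCm38.p6, 5′ to 3′ along the strand of the gene, ending at the base before the start. Capitals mark a forkhead (FOXO) motif.
Bcl2l1 (farthest upstream of 3 starts), chr2:152831729-152831978, minus strand: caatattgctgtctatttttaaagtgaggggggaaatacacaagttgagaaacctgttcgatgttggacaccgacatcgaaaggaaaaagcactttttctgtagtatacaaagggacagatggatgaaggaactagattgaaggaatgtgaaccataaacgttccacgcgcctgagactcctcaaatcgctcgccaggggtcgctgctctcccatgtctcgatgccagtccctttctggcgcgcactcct
Mcl1, chr3:95658471-95658720, plus strand: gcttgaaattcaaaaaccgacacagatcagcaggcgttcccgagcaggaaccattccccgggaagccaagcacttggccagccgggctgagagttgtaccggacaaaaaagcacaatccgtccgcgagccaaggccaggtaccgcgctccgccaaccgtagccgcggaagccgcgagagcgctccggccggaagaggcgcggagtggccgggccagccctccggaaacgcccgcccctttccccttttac
Bcl2l11 (farthest upstream of 2 starts), chr2:128125788-128126037, plus strand: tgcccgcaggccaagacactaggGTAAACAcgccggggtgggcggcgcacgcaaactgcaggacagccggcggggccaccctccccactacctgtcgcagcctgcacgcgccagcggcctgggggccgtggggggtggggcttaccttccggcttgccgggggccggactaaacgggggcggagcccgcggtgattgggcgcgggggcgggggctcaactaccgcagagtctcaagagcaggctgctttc
Of the 9 genes, 8 had 12 such windows among those used, and Bik had none. Any window of the 9 genes on 1 further chromosome was left out, while the windows of all genes were not filtered in this way. The STAT motif TTCNNNGAA, which reads the same on both strands, was in 0 of the 12 windows and in 7.02% of the 32851 windows of all genes. The FOXO motif GTAAACA, searched on both strands, was in 1 of the 12, the Bcl2l11 window above, 227 bases before the start, and in 3.17% of all windows. The CRE motif TGACGTCA, which binds CREB in other promoters and reads the same on both strands, was in 0 of the 12 and in 1.55% of all. The G and C content was 47.6% in the Bcl2l1 window, 64.4% in the Mcl1 window and 72.0% in the Bcl2l11 window. A match describes these letters only and is not a binding site, and its absence holds for this window only.

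The arrays had 37397 to 40281 features with a ratio, and the number of arrays limits the precision. The 2 arrays of a group correlated at 0.975 to 0.985 across genes. Of 9 hepatocyte markers 7 were measured. In the controls, 6 of the 7 lay above the reference in AML12, with a median log2 ratio of 4.24, and 7 of 7 in Hepa 1-6, with a median of 4.17. The exception in AML12 was Afp at -0.22, against 5.61 in Hepa 1-6, while Alb stood at 4.24 and 4.30. None of the 5 fibroblast, 3 measured leukocyte and 3 endothelial markers lay above the reference in either control, and the highest were Kdr at -0.08 in AML12 and -0.04 in Hepa 1-6. Of 4 epithelial markers, 3 were above the reference in AML12 and 2 in Hepa 1-6, where Cdh1 stood at -2.06 against 5.61 in AML12.

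**Figure D1:**
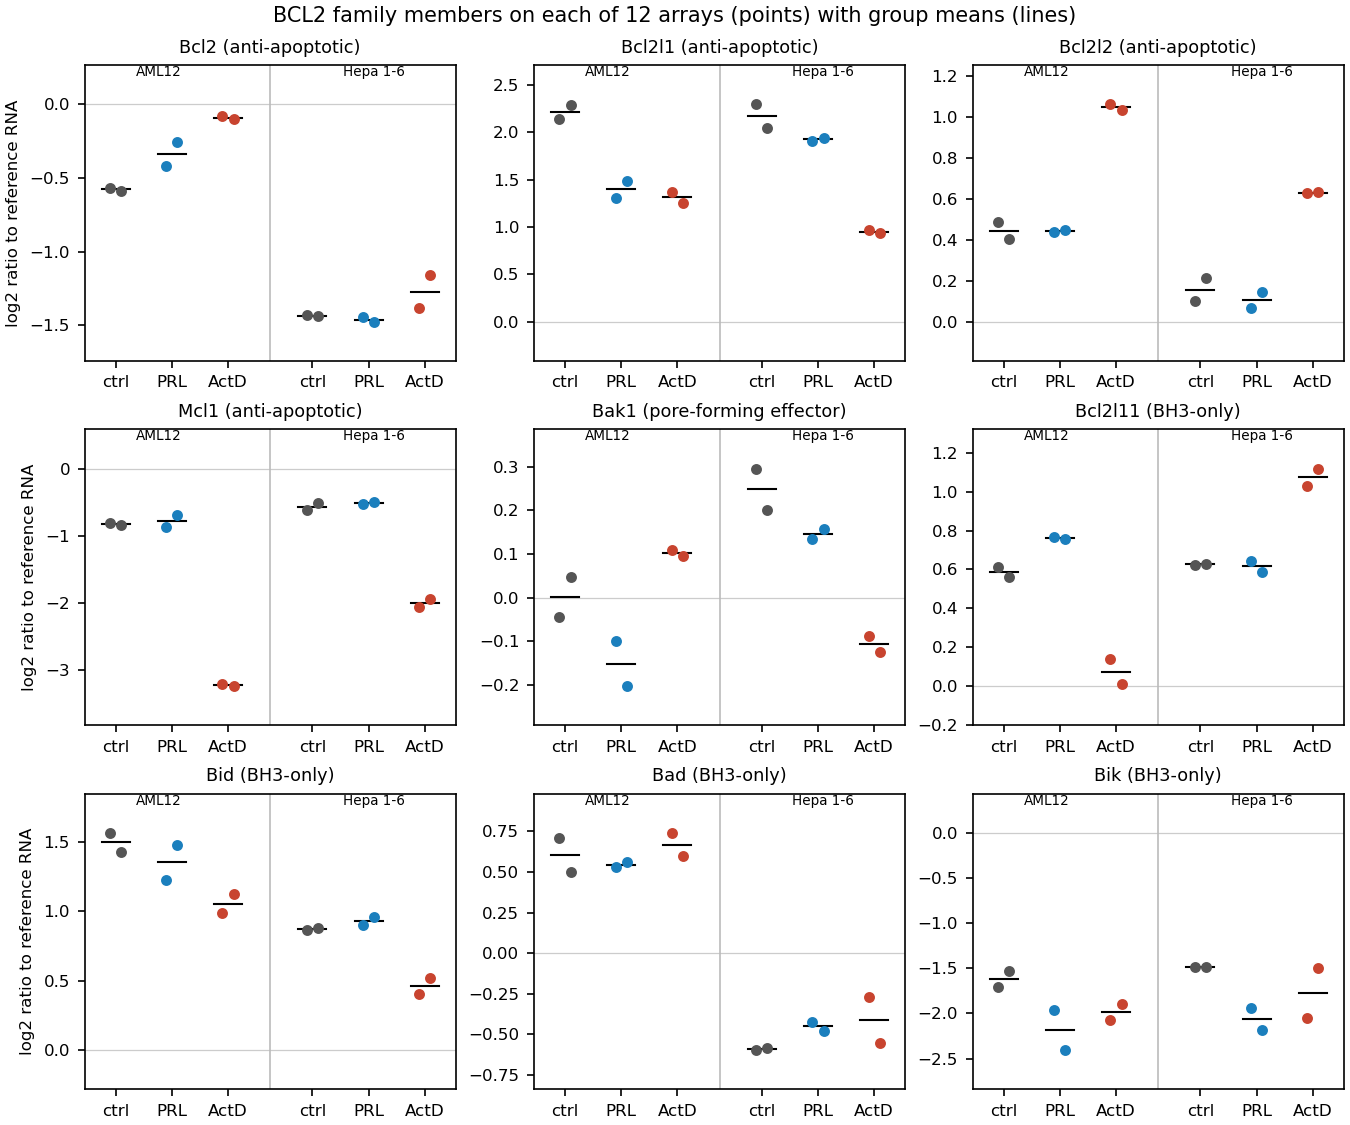
Log2 ratio to the reference RNA (y axis, a separate scale for each gene) of the 9 BCL2 family genes in control (ctrl), prolactin (PRL) and actinomycin D (ActD) cells of AML12 (left of the grey line) and Hepa 1-6 (right). Each point is 1 array and each bar the mean of 2 arrays; the Mcl1 panel shows the 4 actinomycin D arrays between -3.24 and -1.94, and the Bcl2l1 panel shows both AML12 prolactin arrays at 1.31 and 1.49 against 2.14 and 2.29 in the controls.

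Before any treatment, the lines differed in most of these genes. In serum-free controls, Bad, Bcl2, Bid and Bcl2l2 were lower in Hepa 1-6 than in AML12, Mcl1 and Bak1 were higher, and Bcl2l1, Bcl2l11 and Bik did not pass the test. That is 6 of 9 genes past an adjusted p of 0.05 (2 higher and 4 lower), where 61.9% of all genes passed (32.1% higher and 29.8% lower), so the share among the 9 was near the background. Their median difference was -0.04, against 0.04 for all genes.

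Among the anti-apoptotic genes, Bcl2 stood at -0.57 and -0.59 in the AML12 controls and at -1.43 and -1.44 in the Hepa 1-6 controls. Both Hepa 1-6 arrays were below both AML12 arrays, a difference of -0.86 ± 0.08 (SE, n = 2 per group, limma adjusted p = 3.44e-05), which is 1.81-fold lower. The difference passed in the 10 Bcl2 features annotated to NM_009741 and in the AK077913 feature (-0.25). It did not pass in the NM_177410 feature (0.04, adjusted p = 0.807). Bcl2l1 gave 2.14 and 2.29 in AML12 against 2.29 and 2.05 in Hepa 1-6, and the groups overlapped (-0.04 ± 0.10, adjusted p = 0.740). The interval of that difference, -0.28 to 0.19, leaves room for a modest difference either way. Bcl2l2 was at 0.49 and 0.41 in AML12 and lower, at 0.10 and 0.21, in Hepa 1-6 (-0.29 ± 0.06, adjusted p = 0.00359), a difference that passed in 1 of its 2 features (-0.56, adjusted p = 0.00145) and not in the other (-0.02, adjusted p = 0.843). Mcl1 lay at -0.81 and -0.85 in AML12 and at -0.62 and -0.51 in Hepa 1-6, higher by 0.26 ± 0.08 (adjusted p = 0.0201). The Mcl1 call was lost without AML12 control 1, AML12 control 2 or Hepa 1-6 control 2, with adjusted p of 0.0575, 0.0858 and 0.117, and 1 of the 2 Mcl1 features did not pass (0.16, adjusted p = 0.177).

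The pore former Bak1 was at -0.04 and 0.05 in AML12 and at 0.30 and 0.20 in Hepa 1-6, higher by 0.25 ± 0.06 (adjusted p = 0.00957). Without AML12 control 1 or Hepa 1-6 control 1, the adjusted p for Bak1 was 0.0667 or 0.0654, and with only the groups compared it was 0.0572. Of the Bak1 features, 1 passed (0.35, adjusted p = 0.00504) and the other did not (0.14, adjusted p = 0.181). Of the BH3-only genes, Bad, whose protein is held inactive by survival kinases, showed the widest gap. It read 0.71 and 0.50 in AML12 and -0.60 and -0.58 in Hepa 1-6, a difference of -1.19 ± 0.11 (adjusted p = 2.19e-05), 2.29-fold lower. The Bad difference passed in the AK029400 feature (-2.17) and not in the NM_007522 feature (-0.22, adjusted p = 0.239). Bid was at 1.57 and 1.43 against 0.87 and 0.88 (-0.62 ± 0.10, adjusted p = 0.000645). Bcl2l11 was at 0.61 and 0.56 against 0.62 and 0.63 (0.04 ± 0.06, adjusted p = 0.625), and Bik at -1.70 and -1.53 against -1.48 and -1.49 (0.13 ± 0.20, adjusted p = 0.617).

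Prolactin moved 1 of the 9 genes past the threshold in AML12, and that gene, Bcl2l1, went down. Its log2 ratio was 2.14 and 2.29 in the controls and 1.31 and 1.49 with prolactin. Both prolactin arrays lay below both control arrays, and the change was -0.82 ± 0.10 (95% interval -1.05 to -0.58, adjusted p = 0.0172), 1.76-fold lower. Only 1.3% of all genes had a lower value in this comparison. The share of all genes past the threshold was 1.27% (0.719% higher and 0.550% lower). An unadjusted p under 0.05 is a looser cut. It was reached by 5 of the 9 genes, and the share of all genes that reached it was not counted. Without that share, this count does not show whether the 9 genes differed from other genes. The median change of the 9 was -0.06, against -0.03 for all genes. The call rests on few arrays. It was lost without AML12 control 1 (-0.89, adjusted p = 0.0501), without control 2 (-0.75, 0.114), without prolactin array 1 (-0.73, 0.0640) and when only the 2 groups compared were fitted (adjusted p = 0.226), while the direction stayed.

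The other anti-apoptotic genes did not pass in AML12. Bcl2 was -0.57 and -0.59 in the controls and -0.42 and -0.26 with prolactin (0.24 ± 0.08, adjusted p = 0.209). The groups did not overlap for Bcl2, but the difference was not past the threshold. Bcl2l2 gave 0.49 and 0.41 against 0.44 and 0.45 (0.00 ± 0.06 in size, adjusted p = 0.992), and Mcl1 -0.81 and -0.85 against -0.88 and -0.69 (0.04 ± 0.08, adjusted p = 0.844). Both genes overlapped between the groups, and the 95% intervals ran from -0.15 to 0.14 for Bcl2l2 and from -0.14 to 0.23 for Mcl1.

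Neither Bak1 nor the BH3-only genes passed in AML12. Bak1 was -0.04 and 0.05 in the controls and -0.10 and -0.20 with prolactin (-0.15 ± 0.06, adjusted p = 0.275), and Bcl2l11 0.61 and 0.56 against 0.77 and 0.76 (0.18 ± 0.06, adjusted p = 0.224). Bik, whose protein sits mainly at the endoplasmic reticulum, was -1.70 and -1.53 against -1.97 and -2.41. Its groups did not overlap, but the change of -0.57 ± 0.20 did not pass the threshold (adjusted p = 0.218). Bid and Bad overlapped between the groups, with changes of -0.15 ± 0.10 and -0.06 ± 0.11.

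In Hepa 1-6 none of the 9 genes passed with limma, where 0.0363% of all genes passed (5 higher and 1 lower, or 5 and 2 after median centring). At the looser unadjusted p under 0.05 there were 2 (Bcl2l1 and Bik), with no share of all genes counted. Bcl2l1 was 2.29 and 2.05 in the controls and 1.91 and 1.94 with prolactin. Its prolactin arrays were again below both controls, by -0.24 ± 0.10 (95% interval -0.48 to -0.01, adjusted p = 0.593). Bik was -1.48 and -1.49 against -1.94 and -2.18, a difference of -0.57 ± 0.20 (adjusted p = 0.528) beside -0.57 ± 0.20 in AML12; the interval of the difference between the lines, -0.67 to 0.66, is wide. The other 7 genes differed by -0.10 (Bak1) to 0.14 (Bad).

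Whether the Bcl2l1 response differed between the lines was tested directly and did not pass. The difference of the changes, Hepa 1-6 minus AML12, was 0.57 ± 0.14 (95% interval 0.24 to 0.91, adjusted p = 0.220). None of the 9 genes passed this test, where 0.121% of all genes passed (9 higher and 11 lower). With centred arrays 11 and 25 of all genes passed, and with quantile normalization 11 and 18. At the looser unadjusted p under 0.05 there was 1, Bcl2l1, with no share of all genes counted. Averaged over both lines, 1 of 9 genes passed, again Bcl2l1, where 0.495% of all genes did. An unadjusted p under 0.05 was reached by 3 of the 9, again with no share of all genes counted. Bik averaged -0.57 ± 0.14 (adjusted p = 0.151) and Bak1 -0.13 ± 0.04 (adjusted p = 0.249). With the replicate number as a block, the average Bcl2l1 change had an adjusted p of 0.067. Leaving out single arrays also ended the call, at adjusted p up to 0.149; these were AML12 control 1, control 2 and prolactin 1, Hepa 1-6 control 1, prolactin 1 and prolactin 2, and either Hepa 1-6 actinomycin D array.

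**Figure D2:**
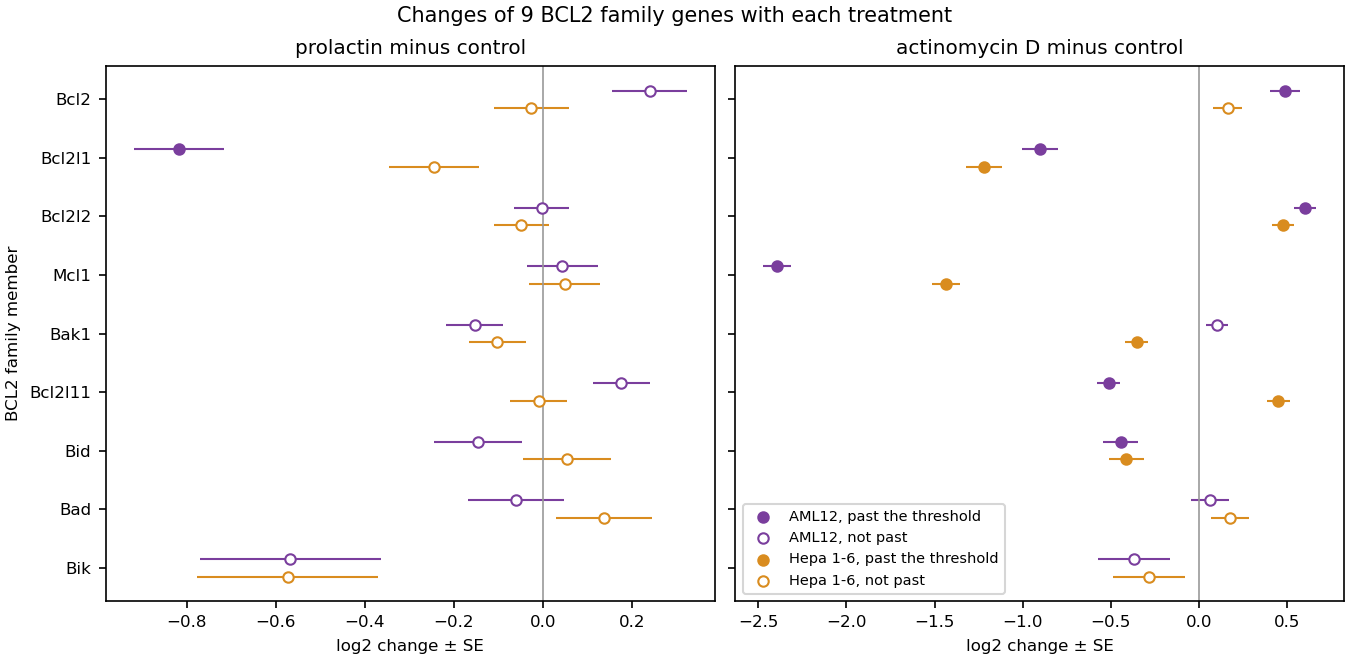
Log2 change (x axis, ± SE) of each of the 9 genes (y axis) with prolactin (left panel) and actinomycin D (right panel), each against the control of the same line, with AML12 in purple and Hepa 1-6 in orange and filled points past an adjusted p of 0.05. With prolactin only Bcl2l1 in AML12 is filled, at -0.82; with actinomycin D, Mcl1 reaches -2.39 in AML12 and -1.44 in Hepa 1-6, and Bcl2l11 lies at -0.51 and 0.45.

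Actinomycin D changed 6 of the 9 genes in each line. Mcl1, Bcl2l1 and Bid fell in both lines, and Bcl2l2 rose in both. Bcl2 rose in AML12, Bak1 fell in Hepa 1-6, and Bcl2l11 fell in AML12 and rose in Hepa 1-6. In AML12 the count was 2 higher and 4 lower, where 53.6% of all genes passed (28.0% higher and 25.5% lower). In Hepa 1-6 it was also 2 higher and 4 lower, where 50.9% passed (27.9% higher and 23.0% lower), so the counts were near the background in both. The median change of the 9 genes was -0.37 in AML12 and -0.28 in Hepa 1-6, against 0.04 and 0.07 for all genes. The same control arrays served both treatments of a line. A loss of mRNA shared by all genes would not show in these normalized ratios, so each change is relative to the other genes.

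That matters most in AML12, where centring every array on its median raised the median change of all genes by 0.11 and turned the 4640 higher and 4223 lower genes into 5848 and 3417 (5345 and 3664 after quantile normalization). After centring, the changes in AML12 were -2.29 for Mcl1, -0.79 for Bcl2l1, 0.71 for Bcl2l2, 0.60 for Bcl2, -0.40 for Bcl2l11 and -0.34 for Bid, all still past the threshold and in the same direction. Bak1 passed as well after centring (0.21, adjusted p = 0.0235) and after quantile normalization (0.20, adjusted p = 0.0339).

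Mcl1, which encodes a short-lived guardian protein, fell furthest. In AML12 it went from -0.81 and -0.85 to -3.21 and -3.24, a change of -2.39 ± 0.08 (95% interval -2.58 to -2.21, adjusted p = 3.94e-07), 5.26-fold lower. Just 129 of the 16549 genes had a lower value. In Hepa 1-6 it went from -0.62 and -0.51 to -2.07 and -1.94, a change of -1.44 ± 0.08 (adjusted p = 7.74e-06), 2.71-fold lower, with 297 genes lower. No treated array came near a control. The fall was smaller in Hepa 1-6 by 0.96 ± 0.11 (adjusted p = 0.000766).

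Bcl2l1 fell in AML12 from 2.14 and 2.29 to 1.37 and 1.26 (-0.90 ± 0.10, adjusted p = 0.000166) and in Hepa 1-6 from 2.29 and 2.05 to 0.96 and 0.94 (-1.22 ± 0.10, adjusted p = 4.5e-05). The fall was 1.87-fold and 2.33-fold, and the difference between the lines, -0.32 ± 0.14, did not pass (adjusted p = 0.135). In AML12 the prolactin arrays (1.31 and 1.49) and the actinomycin D arrays (1.37 and 1.26) overlapped, while in Hepa 1-6 the prolactin arrays (1.91 and 1.94) stood apart from the actinomycin D arrays.

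By gene mean, the remaining anti-apoptotic pair did not fall. Bcl2l2 went up from 0.49 and 0.41 to 1.06 and 1.03 in AML12 (0.60 ± 0.06, adjusted p = 0.0001). In Hepa 1-6 Bcl2l2 went from 0.10 and 0.21 to 0.63 and 0.64 (0.47 ± 0.06, adjusted p = 0.000431), and the lines did not differ past the threshold (-0.13 ± 0.09, adjusted p = 0.317). Bcl2 rose in AML12 from -0.57 and -0.59 to -0.08 and -0.10 (0.49 ± 0.08, adjusted p = 0.00161). In Hepa 1-6 Bcl2 was -1.43 and -1.44 in the controls and -1.38 and -1.16 with actinomycin D (0.16 ± 0.08, adjusted p = 0.143). This mean hides features that fell. With each annotated transcript counted once, the Hepa 1-6 change was -0.38 (adjusted p = 0.00366). The test of the difference for Bcl2 missed the threshold (-0.33 ± 0.12, adjusted p = 0.0743) and passed after median centring (-0.40, 0.0376) and quantile normalization (-0.43, 0.0187). Without Hepa 1-6 actinomycin D 1, the Hepa 1-6 change of Bcl2 passed (0.27, adjusted p = 0.0308), as it did after quantile normalization (0.29, adjusted p = 0.0133), and without Hepa 1-6 actinomycin D 2 the difference between the lines did (-0.44, adjusted p = 0.0252).

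Bak1 was -0.04 and 0.05 in AML12 controls and 0.11 and 0.10 with actinomycin D (0.10 ± 0.06, adjusted p = 0.220), and fell in Hepa 1-6 from 0.30 and 0.20 to -0.09 and -0.12 (-0.35 ± 0.06, adjusted p = 0.00223). The responses differed by -0.45 ± 0.09 (adjusted p = 0.00756). By gene mean, Bcl2l11, the BIM gene, showed the clearest split of the lines. In AML12 it fell from 0.61 and 0.56 to 0.14 and 0.01 (-0.51 ± 0.06, adjusted p = 0.000286). In Hepa 1-6 it rose from 0.62 and 0.63 to 1.03 and 1.12 (0.45 ± 0.06, adjusted p = 0.000676). Its features did not all follow these means. The feature that fell most in AML12 (-1.13) also fell in Hepa 1-6 (-0.44), and the BC058175 feature did not pass in AML12 (0.14, adjusted p = 0.298). The control means did not differ past the threshold, though single features did, and the responses differed by 0.96 ± 0.09 (adjusted p = 0.000285).

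Bid fell in both lines, from 1.57 and 1.43 to 0.99 and 1.12 in AML12 (-0.45 ± 0.10, adjusted p = 0.00585) and from 0.87 and 0.88 to 0.40 and 0.52 in Hepa 1-6 (-0.41 ± 0.10, adjusted p = 0.00907). The difference was 0.03 ± 0.14 with a 95% interval of -0.29 to 0.36. Without Hepa 1-6 actinomycin D 1, the Hepa 1-6 fall of Bid was -0.35 (adjusted p = 0.0547). Bad did not pass in AML12 (0.71 and 0.50 against 0.74 and 0.59; 0.06 ± 0.11) or in Hepa 1-6 (-0.60 and -0.58 against -0.27 and -0.55; 0.18 ± 0.11), where it passed without actinomycin D 2 (0.32, adjusted p = 0.0454). Bik did not pass either, at -2.08 and -1.89 in AML12 (-0.37 ± 0.20, adjusted p = 0.165) and -2.05 and -1.49 in Hepa 1-6 (-0.28 ± 0.20, adjusted p = 0.284). In all, 3 of the 9 genes differed in their actinomycin D response, Mcl1, Bak1 and Bcl2l11, where 30.0% of all genes did (2853 higher and 2119 lower, or 2303 and 2647 with centred arrays and 2270 and 2407 with quantile normalization).

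Set in order over the 6 groups, Mcl1 was highest in Hepa 1-6 with prolactin (-0.52) and in its control (-0.57), which overlapped, then in AML12 with prolactin (-0.79) and in its control (-0.83), which also overlapped, and lowest after actinomycin D. Bcl2l1 was highest in the AML12 control (2.22) and the Hepa 1-6 control (2.17), which did not separate. By gene mean, Bcl2 was higher in all 3 AML12 groups than in any Hepa 1-6 group, and so were Bid and Bad. Single features broke this order. The NM_177410 feature of Bcl2 averaged -0.08 in AML12 with actinomycin D against 0.24 in the Hepa 1-6 control. The NM_007522 feature of Bad averaged -0.90 with prolactin in AML12 against -0.78 with prolactin in Hepa 1-6. For Bik, the control of each line lay above both of its treated groups, but no treatment change of Bik passed, and the treated groups of a line overlapped. In Hepa 1-6 the lower control array (-1.4915) and the higher actinomycin D array (-1.4949) nearly met.

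The single features of a gene did not always move together, and the gene means above hide this. Of the 37 features, 31 passed with actinomycin D in AML12 (14 higher and 17 lower) and 31 in Hepa 1-6 (12 higher and 19 lower), where 54.6% and 50.2% of all 35664 features passed, but features for 1 gene share its name and, where repeated, its transcript. With actinomycin D, opposite calls for features of 1 gene were made for Bak1 in AML12 and for Bcl2 and Bcl2l11 in Hepa 1-6; between the control lines they were made for Bcl2l11 (-0.55 ± 0.11 and 0.67 ± 0.06). The annotation gives the transcript each feature was designed on but not where on it.

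For Bcl2, 10 features annotated to NM_009741 set the gene mean. With actinomycin D they rose by 0.52 to 0.61 in AML12, all 10 past the threshold. In Hepa 1-6 their values were 0.26 to 0.52, with 9 of 10 past. The SD over these 10 features on an array was 0.03 to 0.12. The feature annotated to AK077913 read -0.37 and -0.41 in AML12 controls and -0.06 and -0.03 with actinomycin D, a rise of 0.35 ± 0.06 (adjusted p = 0.00231). In Hepa 1-6 the same feature went the other way, from -0.67 and -0.61 to -1.54 and -1.46 (-0.86 ± 0.06, adjusted p = 2.49e-05), and its responses differed by -1.21 ± 0.09 (adjusted p = 0.000122). The feature annotated to NM_177410 read 0.24 and 0.24 in Hepa 1-6 controls and -0.38 and -0.42 with actinomycin D (-0.64 ± 0.12, adjusted p = 0.00326), and its change in AML12 was -0.28 ± 0.12 (adjusted p = 0.0889). When each annotated transcript counted once, the Bcl2 change in Hepa 1-6 was -0.38 (adjusted p = 0.00366) in place of 0.16, so the direction for Bcl2 there depends on which features are read. With prolactin in AML12, AK077913 alone among the 12 passed (0.34 ± 0.06, adjusted p = 0.0439); the 10 ran from 0.14 to 0.28.

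The 12 features of Bcl2l1, all annotated to NM_009743, did move together. With prolactin in AML12 their changes were -0.92 to -0.71 and 11 of 12 passed. In all, 12 of the 37 features passed there, these 11 and the Bcl2 feature above, where 2.19% of all features passed. The 12 Bcl2l1 features read 1 transcript on the same arrays, so their calls repeat 1 result and are not separate evidence. With prolactin in Hepa 1-6 they ran from -0.38 to -0.07, and none passed. With actinomycin D the range was -1.29 to -0.95 in Hepa 1-6, all 12 past, and -1.10 to -0.21 in AML12, 11 past. The odd feature in AML12, at -0.21 ± 0.15, was also the one that missed the threshold with prolactin there (-0.71 ± 0.15, adjusted p = 0.0592).

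Both Mcl1 features fell in both lines, by unequal amounts. One went from -0.93 and -0.91 to -4.05 and -4.05 in AML12 (-3.13 ± 0.09), and from -0.66 and -0.46 to -2.11 and -1.94 in Hepa 1-6 (-1.47 ± 0.09). The other went from -0.69 and -0.78 to -2.36 and -2.43 (-1.66 ± 0.09) and from -0.59 and -0.56 to -2.02 and -1.94 (-1.41 ± 0.09). The difference between the lines passed for the first feature (1.66 ± 0.13, adjusted p = 0.000133), and the second did not pass that test (0.25 ± 0.13, adjusted p = 0.190).

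The 2 Bak1 features, annotated to the same transcript, took opposite courses with actinomycin D in AML12, one from 0.42 and 0.47 to 1.13 and 0.99 (0.62 ± 0.08, adjusted p = 0.000442) and the other from -0.51 and -0.37 to -0.91 and -0.80 (-0.42 ± 0.08, adjusted p = 0.00252). In Hepa 1-6 the first did not pass (0.14 ± 0.08, adjusted p = 0.204) and the second fell, with a change of -0.85 ± 0.08 (adjusted p = 7.38e-05). The difference between the lines passed for both, at -0.48 ± 0.12 (adjusted p = 0.0196) and -0.43 ± 0.11 (adjusted p = 0.0228). So the Bak1 level after actinomycin D has no single direction in AML12, while the difference between the lines had the same sign in both features.

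For Bcl2l11, too, the difference between the lines had the same sign in every feature, but its opposite calls were made in Hepa 1-6 and not in AML12. The feature annotated to BC058175 read 0.51 and 0.64 in AML12 controls and 0.84 and 0.59 with actinomycin D (0.14 ± 0.11, adjusted p = 0.298), and rose in Hepa 1-6 from 0.05 and 0.01 to 0.78 and 0.80 (0.76 ± 0.11). One of the 2 annotated to NM_207680 fell in both lines, from 0.19 and 0.00 to -0.97 and -1.09 in AML12 (-1.13 ± 0.11) and from 0.10 and 0.11 to -0.49 and -0.19 in Hepa 1-6 (-0.44 ± 0.11, adjusted p = 0.0104). The other fell from 1.13 and 1.04 to 0.54 and 0.52 in AML12 (-0.55 ± 0.06) and rose from 1.73 and 1.77 to 2.80 and 2.75 in Hepa 1-6 (1.03 ± 0.06, adjusted p = 1.08e-05). All 3 features passed the test between the lines in the same direction, with differences of 0.62 ± 0.15, 0.69 ± 0.15 and 1.58 ± 0.09. Over the 9 genes, 9 of 37 features passed that test (4 higher and 5 lower), where 29.6% of all features did.

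A further pair of genes owed their mean mostly to 1 feature. The Bcl2l2 feature annotated to BC040369 rose from 0.96 and 0.74 to 1.93 and 1.84 in AML12 (1.04 ± 0.10) and from 0.17 and 0.40 to 1.14 and 1.16 in Hepa 1-6 (0.86 ± 0.10). The NM_007537 feature rose by 0.17 ± 0.06 in AML12 (adjusted p = 0.0476) and did not pass in Hepa 1-6 (0.09 ± 0.06, adjusted p = 0.281). The gap in Bad between the control lines lay in the AK029400 feature, at 1.99 and 1.86 in AML12 against -0.25 and -0.25 in Hepa 1-6 (-2.17 ± 0.10, adjusted p = 4.5e-07). The NM_007522 feature of Bad read -0.57 and -0.86 against -0.95 and -0.91 (-0.22 ± 0.15, adjusted p = 0.239). Between the control lines, 18 of the 37 features passed, where 59.6% of all features did.

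**Figure D3:**
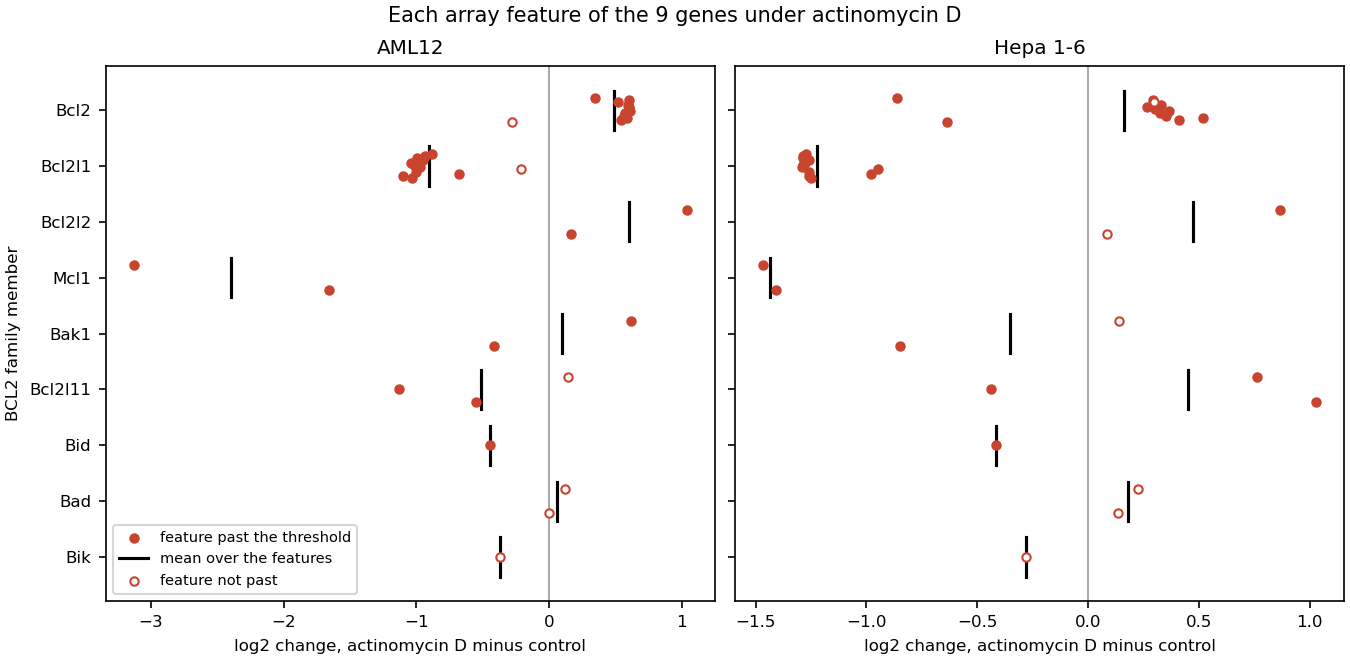
Log2 change with actinomycin D (x axis) of every array feature of the 9 genes (y axis, 1 row per gene) in AML12 (left) and Hepa 1-6 (right), with filled points past an adjusted p of 0.05 and black bars at the gene mean. The 12 Bcl2l1 features lie on the lower side in both panels, whereas Bak1 in AML12 has 1 feature at 0.62 and 1 at -0.42, and Bcl2 in Hepa 1-6 has features from -0.86 to 0.52.

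The genes that act around the family were described with 6 lists, of which 65 of 75 genes were tested. With prolactin, 0 rose and 1 fell in AML12 (limma), where 1.27% of all genes passed. None of the 65 passed in Hepa 1-6, where 0.0363% of all genes did. The gene that fell was Pim3, which encodes a kinase that phosphorylates BAD. It read 0.28 and 0.44 in AML12 controls and -0.60 and -0.38 with prolactin (-0.85 ± 0.10, adjusted p = 0.0172), a fall of nearly the same size as that of Bcl2l1. The Pim3 call was lost without AML12 control 2 (-0.77, adjusted p = 0.111) or prolactin 1 (-0.74, adjusted p = 0.0587). In Hepa 1-6, Pim3 was 0.62 and 0.41 in the controls and 0.24 and 0.24 with prolactin, and its responses did not differ past the threshold (0.57 ± 0.15, adjusted p = 0.239). The death receptor gene Fas was above its controls on every prolactin array (0.77 and 0.65 against 1.08 and 0.99 in AML12, and 0.83 and 1.02 against 1.23 and 1.29 in Hepa 1-6), but its average change of 0.33 ± 0.06 missed the threshold (adjusted p = 0.0737). Stat5a, which encodes 1 of the 2 STAT5 proteins, was at 0.24 ± 0.08 in Hepa 1-6 (adjusted p = 0.512). Bbc3, the gene of the BH3-only protein PUMA, was at 0.35 ± 0.09 in AML12 (adjusted p = 0.119).

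With actinomycin D, 22 of the 65 genes rose and 17 fell in AML12, and 28 rose and 16 fell in Hepa 1-6. Of all genes, 28.0% rose and 25.5% fell in AML12, and 27.9% rose and 23.0% fell in Hepa 1-6. Centring the arrays gave 28 and 14 in AML12 and 29 and 16 in Hepa 1-6. It moved all genes too, from 4640 higher and 4223 lower to 5848 and 3417 in AML12. In Hepa 1-6 the counts of all genes went from 4615 higher and 3802 lower to 4973 and 3473. The other multidomain genes of the family had 3 of 6 higher and none lower in each line, with a median change of 0.27 in AML12 and 0.24 in Hepa 1-6. Bcl2l15, a less studied family member, rose from -0.72 and -0.74 to 0.94 and 0.76 in AML12 (1.58 ± 0.10) and from 1.92 and 2.20 to 3.65 and 3.59 in Hepa 1-6 (1.56 ± 0.10).

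Among the other BH3-only and BH3-like genes, 3 of 9 rose and 4 fell in AML12, and 4 rose and 3 fell in Hepa 1-6. Of all genes, 53.6% passed with actinomycin D in AML12 and 50.9% in Hepa 1-6, in either direction. Pmaip1, which encodes NOXA, the BH3-only partner of MCL1, rose in both lines, from 0.84 and 0.94 to 2.64 and 2.49 in AML12 (1.68 ± 0.10, adjusted p = 6.58e-06) and from 2.31 and 2.28 to 4.05 and 4.25 in Hepa 1-6 (1.86 ± 0.10, adjusted p = 7.77e-06). Bnip3, a mitochondrial protein gene known for its response to low oxygen, rose from -2.44 and -2.47 to 1.20 and 0.64 in AML12 (3.38 ± 0.15) and from -1.22 and -1.27 to 0.59 and 0.63 in Hepa 1-6 (1.86 ± 0.15). Bbc3 fell in AML12 from 0.41 and 0.17 to -1.43 and -1.44 (-1.73 ± 0.09, adjusted p = 3.24e-06). Bmf, the gene of a BH3-only protein tied to the cytoskeleton, fell in AML12 from 1.49 and 1.21 to -0.50 and -0.18 (-1.69 ± 0.14), and in Hepa 1-6 it was already low, at -1.37 and -1.27 against -1.43 and -1.26. Hrk fell in both lines, with changes of -0.80 in AML12 (adjusted p = 0.0144) and -1.28 in Hepa 1-6 (adjusted p = 0.00162), and the difference did not pass (adjusted p = 0.279).

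Of 12 apoptosome and caspase genes, 3 rose and 5 fell in AML12 and 4 rose and 5 fell in Hepa 1-6. For this list and the next, the shares of all genes past the threshold were 53.6% in AML12 and 50.9% in Hepa 1-6. Casp9, the initiator caspase of the mitochondrial pathway, rose in both (0.44 ± 0.08 and 0.78 ± 0.08), and Dffb, which encodes the DNase that cuts chromatin in apoptosis, fell in both (-1.52 ± 0.07 and -0.79 ± 0.07). Of 8 inhibitor of apoptosis genes, 4 rose and 1 fell in each line. The one that fell was Birc5, or survivin, in AML12 (-1.01 ± 0.10), and Birc3 in Hepa 1-6 (-1.06 ± 0.10). After centring, 6 rose and 1 fell in AML12, and after quantile normalization 2 rose and 1 fell. Of all genes in AML12, 5848 rose and 3417 fell after centring, and 5345 and 3664 after quantile normalization.

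Of 10 death receptor and adaptor genes, 4 rose and 2 fell in AML12, and 6 rose and 2 fell in Hepa 1-6. Here and for the regulators below, 53.6% of all genes passed in AML12 and 50.9% in Hepa 1-6. Fas rose from 0.77 and 0.65 to 2.82 and 2.72 in AML12 (2.06 ± 0.09, adjusted p = 1.03e-06) and from 0.83 and 1.02 to 2.20 and 2.29 in Hepa 1-6 (1.31 ± 0.09, adjusted p = 1.47e-05), while the adaptor genes Fadd (-0.75 ± 0.07 and -0.45 ± 0.07) and Traf2 (-0.92 ± 0.07 and -0.57 ± 0.07) fell in both. Of 20 genes of regulators, 5 rose and 5 fell in AML12, and 7 rose and 5 fell in Hepa 1-6. Foxo3, a forkhead factor gene, fell from 0.89 and 1.02 to -0.87 and -1.02 in AML12 (-1.90 ± 0.17) and from 0.83 and 0.90 to -0.80 and -0.25 in Hepa 1-6 (-1.39 ± 0.17). Pim2 and Stat5a rose in both lines, Pim2 by 1.67 ± 0.09 and 0.74 ± 0.09 and Stat5a by 0.69 ± 0.08 and 1.08 ± 0.08. Fbxw7, the gene of a ubiquitin ligase subunit that marks MCL1 for breakdown, fell in both lines (-1.32 in AML12 and -1.16 in Hepa 1-6), and its responses did not differ past the threshold (adjusted p = 0.378).

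Between the control lines, 27 of the 65 genes were higher in Hepa 1-6 and 19 lower, where 32.1% of all genes were higher and 29.8% lower. Bcl2l14 was at -0.18 and -0.07 in AML12 and at 5.15 and 5.18 in Hepa 1-6 (5.29 ± 0.13, adjusted p = 1.28e-08). Pmaip1 was higher in Hepa 1-6 (1.41 ± 0.10) and Bmf lower (-2.67 ± 0.14). Casp8 and Apaf1 were higher (1.05 ± 0.07 and 1.00 ± 0.09), and Casp6, Casp9 and Xiap lower (-1.16 ± 0.06, -0.91 ± 0.08 and -1.31 ± 0.11).

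**Figure D4:**
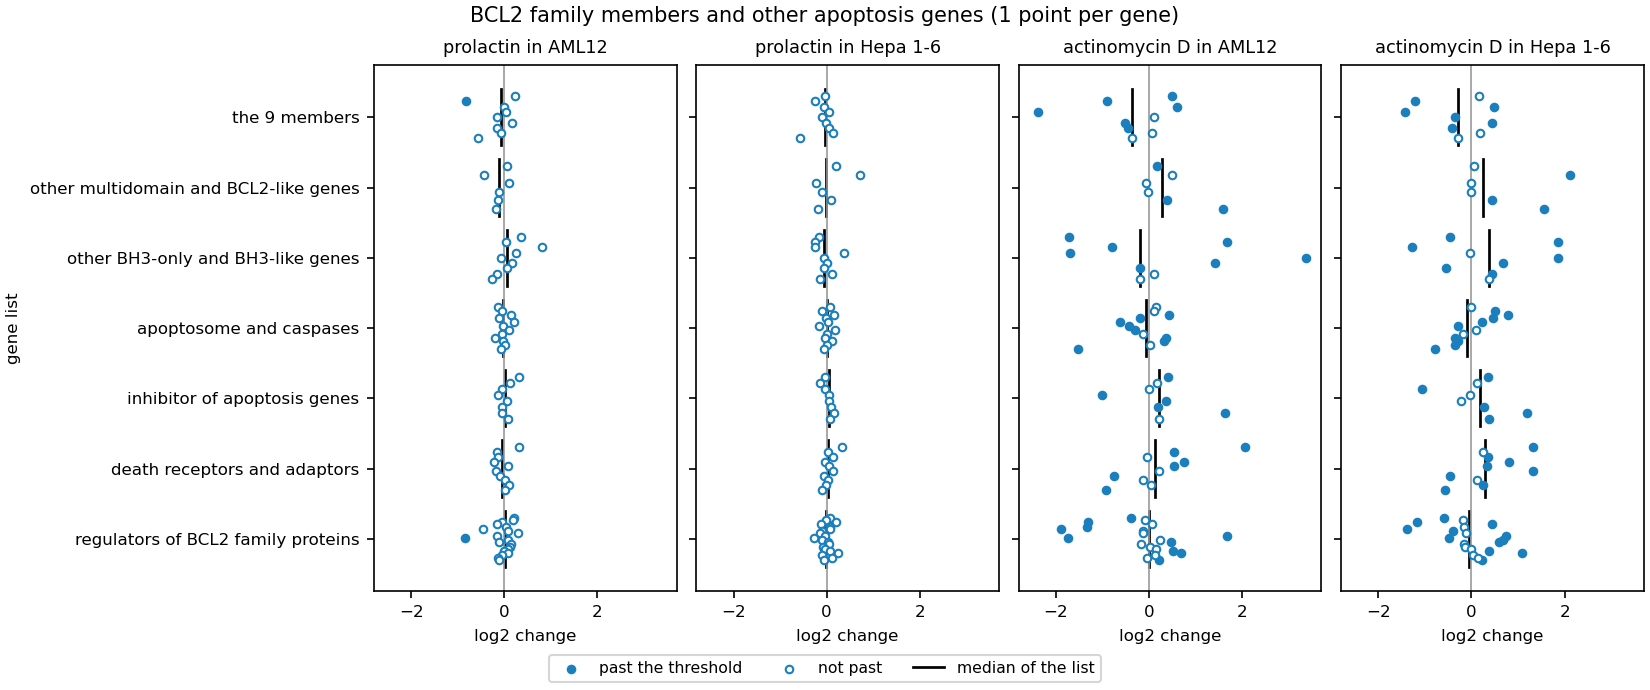
Log2 change (x axis) of the 9 genes and of the 65 tested genes of 6 lists (y axis, 1 point per gene) with prolactin and actinomycin D in each line, with filled points past an adjusted p of 0.05 and a black bar at the median of each list. The prolactin panels hold 2 filled points in AML12, Bcl2l1 and Pim3, and none in Hepa 1-6; in the actinomycin D panels every list has filled points.

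Over the 12 arrays, the genes whose ratios ran most like a member were found by Pearson correlation, as a description, since the arrays share 6 groups and the same reference. Mcl1 ran with Pogz, Med26 and Zfp870 (all 0.996), Bcl2l2 with Hdac8 (0.995), Ccdc159 (0.993) and Cast (0.992), and Bcl2 with Prss23 (0.992), Akap9 (0.992) and Aplp2 (0.990). Bad ran with Rpl13a (0.994), Serpina1e (0.993) and Eef2k (0.992), and Bid with Carmil1 (0.981), Wdr6 (0.980) and Polr2m (0.976). For Bcl2l11 the nearest were Rgs12 (0.970), Ier3 (0.969) and Ap4b1 (0.964), and for Bak1 Arfgef2 (0.970), Cd2bp2 (0.958) and Vamp2 (0.942). Bcl2l1 was nearest to Ndufs6 (0.946), Slc25a44 (0.943) and Slc25a22 (0.935). Bik had no close match, with Alox12e (0.813), 4833422M21Rik (0.803) and Fgf21 (0.775) the nearest.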

How the data were processed

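Data came from 12 Agilent 2-colour mouse arrays, 2 per group. The deposited values were the authors' normalized ratios of sample over reference, taken as log10; Agilent Feature Extraction is named per the submitters' processing notes, while its version, its settings and the log base were not given in the sources used. Base 10 is that software's convention. Were it 2, the printed log2 values would shrink 3.32 times. An exact 0 was treated as no ratio. The deposited log10 ratios were converted to log2 (3.32 per unit). Of 45018 features, the platform annotation gives 1 symbol to 33653 (33517 matched by Entrez identifier), several to 56 and none to 11309. The 28519 with 1 symbol and a ratio on all 12 arrays were averaged into 16549 genes, and all 35664 with a ratio on all arrays were tested singly.

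Genes were tested two-sided in R 4.3.3 by limma 3.58.1 (functions lmFit, contrasts.fit and eBayes; a mean per group over 12 arrays, 6 residual and 1.84 prior degrees of freedom) with Benjamini-Hochberg adjustment over all genes or features and a threshold of 0.05. The words rose, fell and changed are kept for what passed. The script was tested on simulated data. Nothing marks dim or saturated features, so a low ratio may reflect a floor of detection. Figures were drawn with matplotlib 3.10.9, and tables made with numpy 2.4.6 and pandas 2.3.3, under Python 3.11.15.

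The 9 genes, the 6 lists and the tests were chosen with earlier results of these data known. The text names all 9 genes, of each list up to the 2 largest rises and 2 largest falls past the threshold (or the largest t where none passed), and the 3 genes nearest to each member; not all of these are printed. Afp, Alb, Cdh1 and Kdr, list members given at levels without a call and the features described singly stand outside this rule and were picked after their values were seen. Alternatives were median centring, quantile normalization, looser and stricter filters, exact zeros kept, 1 feature per gene, single features, only the groups compared, a replicate block and each array left out; averaging per annotated transcript first, and the rescaling and leaving out of arrays for the lists, were added after seeing the data. Replicate numbers pair arrays only if same-numbered arrays deviate together; their deviations correlated at -0.048 to 0.159 over pairs of groups, and the labels state no pairing, so arrays were not paired.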

Additional observations from a re-analysis of the deposited data

Results flagged for a closer look

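The responses to actinomycin D differed between the lines by a direct test for 3 of the 9 BCL2 family genes and for 17 of the genes named from the lists, which were named for the size of their differences. Of all genes 30.0% passed this test, and of the 65 list genes 14 were higher and 10 lower (10 and 10 after centring, 9 and 11 after quantile normalization). Of all genes, 2853 were higher and 2119 lower (2303 and 2647 after centring, 2270 and 2407 after quantile normalization). Values are the change in Hepa 1-6 minus the change in AML12, in log2 units ± SE, with limma adjusted p. For the BCL2 family genes limma gave 0.96 ± 0.11 for Mcl1 (adjusted p = 0.000766), -0.45 ± 0.09 for Bak1 (adjusted p = 0.00756) and 0.96 ± 0.09 for Bcl2l11 (adjusted p = 0.000285). For Mcl1 the difference was held by 1 of 2 features, and for Bak1 and Bcl2l11 it passed in every feature.

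The genes with a more positive change in Hepa 1-6 were Bmf (1.66 ± 0.20), Bbc3 (1.26 ± 0.13), Pim3 (1.26 ± 0.15), Foxo1 (1.19 ± 0.09), Birc5 (0.98 ± 0.15), Casp2 (0.86 ± 0.09), Dffb (0.73 ± 0.11), Tnfrsf1a (0.39 ± 0.09) and Traf2 (0.34 ± 0.10). Those with a more negative change were Bnip3 (-1.52 ± 0.21), Birc3 (-1.06 ± 0.15), Pim2 (-0.93 ± 0.12), Fas (-0.75 ± 0.12), Bnip3l (-0.73 ± 0.11), Endog (-0.71 ± 0.15), Aifm1 (-0.62 ± 0.10) and Birc6 (-0.58 ± 0.12). Their adjusted p ran from 9.95e-05 (Foxo1) to 0.0320 (Traf2), and Traf2 missed the threshold when any of 7 single arrays was left out (adjusted p up to 0.0951).

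The sign of these differences is not the sign of each line's change: Fas rose and Dffb fell in both lines, Bbc3 fell far more in AML12 (0.41 and 0.17 to -1.43 and -1.44) than in Hepa 1-6 (0.08 and 0.11 to -0.35 and -0.39), and Birc3 read -0.18 and -0.23 in AML12 controls and -0.21 and -0.20 with actinomycin D, against -0.19 and -0.28 and then -1.37 and -1.22 in Hepa 1-6.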

How the results depend on the processing

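Of 1560 values of the 72 changes of the 9 genes under 22 alternatives, 1470 kept their direction and side of the threshold, 44 differed only in the sign of a change that passed in neither, 24 lost the threshold, 16 gained it and 6 changed sign with a call on one side. The filter on the lowest 20% of mean ratios removed Bcl2, Mcl1 and Bik, so it gave them no values. All 6 changes of sign came with the choice of features: Bcl2 with actinomycin D was -0.28 in AML12 and -0.64 in Hepa 1-6 with the feature of the highest mean ratio, and in Hepa 1-6 -0.38 with transcripts averaged first and -0.86 for the single feature with the largest t; with the feature of the highest mean ratio Bak1 was 0.14 in Hepa 1-6 with actinomycin D, and Bcl2 was 0.0397 between the control lines. The count with prolactin in AML12 went from 1 gene to 0 with only the compared groups and ranged from 0 to 1 with arrays left out. With single features it was 2 (Bcl2l1 and Bcl2), and Bcl2 entered through 1 of its 12 features. A gene counted there if at least 1 of its features passed, so genes with more features had more chances. The share of all genes with at least 1 feature past was not counted. The mean over both lines went from 1 to 0 with only the compared groups and 0 with the replicate block, and from 0 to 1 with arrays left out. The actinomycin D difference between lines went from 3 to 5 with single features, counted in the same way and again without a share of all genes. The ranges with 1 array left out were 6 to 6 and 6 to 7 for actinomycin D in AML12 and Hepa 1-6, 3 to 4 for their difference and 4 to 6 between the control lines. Centring and quantile normalization each gave 3 higher and 4 lower with actinomycin D in AML12, and 2 and 2 for the difference. In Hepa 1-6 centring gave 2 and 4, and quantile normalization 3 and 4, where 4549 of all genes were higher and 3489 lower. The other counts of all genes under these scalings are given above. The replicate block changed no other count of the 9 genes: 1 and 0 passed with prolactin in AML12 and Hepa 1-6, 6 and 6 with actinomycin D, 3 and 6 for the differences in that response and between the controls. The causes were not tested. With 2 arrays per group and no marks of signal over background, changes of the size seen for Bik (SE 0.20) could not be resolved.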
